A study of Homo sapiens with 12 samples.

Results

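The small nucleolar RNA host genes described here are 10 genes chosen by name among the 58233 genes of the deposited tables: GAS5, SNHG1, SNHG5, SNHG6, SNHG7, SNHG8, SNHG12, SNHG15, SNHG16 and ZFAS1. Each had 1 row, and all 10 passed the filter on low values in every comparison. Their transcripts were sequenced in 12 RNA libraries from K562, a human line from chronic myeloid leukaemia with erythroid features. There were 3 clones in which the mutant ASXL1 allele had been knocked out with CRISPR/Cas9, and 3 parental clones that keep it. There were also 2 K562 pools each for CRISPR/Cas9 knockout of FOXK1, for knockout of FOXK2 and for the SCR control, and the same SCR pools served both FOXK comparisons. The pools are mixtures of edited cells, and nothing beyond the labels says that replicates came from separate cultures, so p-values measure the spread between these libraries. ASXL1 is a partner of the Polycomb deubiquitinase BAP1, and FOXK1 and FOXK2 are forkhead transcription factors that bind the same complex.

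A small nucleolar RNA (snoRNA) guides the chemical modification of ribosomal RNA. C/D box snoRNAs direct 2′-O-methylation and H/ACA box snoRNAs direct pseudouridylation. Most human snoRNAs lie in introns and are released when the host transcript is spliced. The spliced exons of a non-coding host remain as a long RNA, which for several hosts is loaded on ribosomes and removed by nonsense-mediated decay. Many hosts share with ribosomal protein genes a start site with a C followed by a run of pyrimidines, the terminal oligopyrimidine tract, which ties translation of the RNA to growth signals through mTOR.

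The starts of 8 of the hosts are shown so that their first bases can be set against this tract. SNHG6 and SNHG15 had no RefSeq window and are not printed. The printed sequence runs 5′ to 3′ on the gene's strand of GRCh38, and capitals mark the unbroken pyrimidine run that begins at the first transcribed base. The entries of SNHG1, SNHG5, SNHG7, SNHG8, SNHG12 and ZFAS1 hold 50 bases before and 30 bases from the start given by RefSeq (GRCh38.p14). Those of GAS5 and SNHG16 hold the first 30 bases of transcripts from their commonest start in GENCODE 29, a start chosen for these 2 genes after both had been read, since their RefSeq starts begin with A and G and have no pyrimidine run. GAS5 lies at chr1:173867960-173867989 on the minus strand, SNHG16 at chr17:76557769-76557798 on the plus strand, SNHG1 at chr11:62855856-62855935 on the minus strand, SNHG5 at chr6:85678704-85678783 on the minus strand, SNHG7 at chr9:136728155-136728234 on the minus strand, SNHG8 at chr4:118278712-118278791 on the plus strand, SNHG12 at chr1:28581844-28581923 on the minus strand and ZFAS1 at chr20:49278592-49278671 on the plus strand.
GAS5: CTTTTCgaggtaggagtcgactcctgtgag
SNHG16: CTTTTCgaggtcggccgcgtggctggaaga
SNHG1: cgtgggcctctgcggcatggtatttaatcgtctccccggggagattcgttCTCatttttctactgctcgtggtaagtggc
SNHG5: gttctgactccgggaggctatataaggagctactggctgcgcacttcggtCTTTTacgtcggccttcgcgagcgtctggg
SNHG7: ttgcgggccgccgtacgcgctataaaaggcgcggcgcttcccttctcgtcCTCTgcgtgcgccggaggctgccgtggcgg
SNHG8: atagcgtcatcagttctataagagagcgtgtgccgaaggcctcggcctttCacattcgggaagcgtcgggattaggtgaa
SNHG12: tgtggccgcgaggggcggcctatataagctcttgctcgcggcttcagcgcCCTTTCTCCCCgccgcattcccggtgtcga
ZFAS1: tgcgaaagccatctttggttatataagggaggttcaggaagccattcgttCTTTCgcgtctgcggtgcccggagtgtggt

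GAS5 and SNHG16 shared their first 11 bases. SNHG12 had the longest run of these sequences, 11 pyrimidines, GAS5 and SNHG16 had 6 each, SNHG5 and ZFAS1 had 5 each, SNHG7 had 4, SNHG1 had 3 before an A, and SNHG8 had 1. The run depends on the start taken. Of the 29 GENCODE transcripts of GAS5, 6 begin at the start printed and 0 at the RefSeq start. The commonest GENCODE start of ZFAS1, with 4 of 10 transcripts, gives a run of 1, and that of SNHG8 begins with G. SNHG12 has 3 GENCODE starts tied as commonest, with runs of 2, 9 and 11. SNHG1 has a run of 3 at its commonest GENCODE start too, from which 9 of 25 transcripts begin. Of the 2 hosts not printed, SNHG6 has a run of 7 at its commonest GENCODE start, with 3 of 5 transcripts. SNHG15 has 10 GENCODE starts with 1 transcript each and runs of 0 to 3, none a C followed by at least 3 pyrimidines. RefSeq's promoter table held 8 of the 10 genes. A C at the start followed by at least 3 pyrimidines was found in 4 of these 8 windows (SNHG5, SNHG7, SNHG12 and ZFAS1), against 5.451% of all 35116 windows. The letters TATAA on the sense strand in the 50 bases before the start were found in 5 of 8 windows, against 4.736% of all windows. The forkhead core letters TAAACA, or TGTTTA for the other strand, occurred in 300 bases around the RefSeq start in 1 of 8 windows (GAS5), against 12.32% of all windows. That GAS5 window lies around chr1:173869045 and does not reach the GAS5 bases printed above. These are matches of letters at annotated starts, and the start used in K562 was not measured.

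Of the 10 host genes, GENCODE 29 places snoRNA genes inside 9 on the same strand, 26 in all, and none inside GAS5 in the annotation used here. Guests of the C/D class include SNORD22 and SNORD25 to SNORD28 in SNHG1, SNORD50B in SNHG5, SNORD87 in SNHG6, SNORD99 in SNHG12, SNORD1A to SNORD1C in SNHG16 and the SNORD12 family in ZFAS1. H/ACA guests lie in SNHG7 (SNORA17A and SNORA17B), SNHG8 (SNORA24), SNHG12 (SNORA16A, SNORA44 and SNORA61) and SNHG15 (SNORA9). All 26 guest rows were listed at 0 FPKM in all 12 libraries. Of 37 guest symbols looked for, among them the SNORD44 and SNORD74 to SNORD81 group known from GAS5, 32 had rows. Their 58 rows, which include copies elsewhere, were also at 0. The guest genes are 69 to 137 bases long and the libraries were cut to fragments of 200 to 300 bases, so the values below are those of the host transcripts and say nothing of the mature guides.

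K562 markers were at 12.98 FPKM or more in every library (10 of 10 listed), and the lowest value was that of HBG1. GATA1 was at 189.6 to 291.3 FPKM, KLF1 at 81.8 to 183.2 FPKM and the gamma-globin gene HBG2 at 8562 to 22840 FPKM. Of genes expected to be low, MS4A1 was at 0, CDKN2A, CD3E and ALB stayed at or under 0.43 FPKM, and COL1A1 reached 1.29 FPKM, while EPCAM was at 65.5 to 104 FPKM in all 12 libraries. The summed FPKM was 824692 to 839261 in the mutant ASXL1 knockout clones, against 899097 to 961495 in the parental clones, and 917281 to 975657 in the pools. Mitochondrially encoded genes made up 87945 to 92661 of that sum in the knockout clones, against 119405 to 144695 in the parental clones. ASXL1 itself averaged 29.4 ± 2.53 FPKM in the knockout clones, against 49.4 ± 9.36 FPKM in the parental clones (log2 fold change -0.72, adjusted p = 0.0142, and 0.0542 without knockout clone 3), while the authors' deposited table has -0.08 with an adjusted p of 0.436, so the 2 sources differ on the targeted gene. FOXK2 averaged 26.5 ± 1.45 FPKM in the FOXK2 pools, against 41.7 ± 1.34 FPKM in the SCR pools (-0.64, adjusted p = 0.0445, and 0.0869 to 0.313 when any 1 of these 4 libraries was left out). FOXK1 averaged 5.83 ± 0.345 FPKM in the FOXK1 pools, against 6.25 ± 0.0184 FPKM in the SCR pools (-0.09, adjusted p = 0.648), while the authors' deposited table has a fall of -0.26 with an adjusted p of 0.0189.

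The 10 host genes were all abundant and kept nearly the same order of levels in the 5 groups. FPKM is a level per transcript length and library size, so genes can be set side by side on it. SNHG5, the host of the U50 snoRNAs, was highest in every library, at 1639 to 2300 FPKM, and made up 44.0% to 51.4% of the summed level of the 10. GAS5, first described as a transcript that accumulates when growth stops, came next at 550.6 to 736 FPKM, and SNHG1, the U22 host, followed at 394 to 562.4 FPKM. SNHG6 came after them at 281 to 429 FPKM. The lowest of the 10 was SNHG7 in the mutant ASXL1 knockout, parental and SCR groups, and SNHG15 in the FOXK1 and FOXK2 pools.

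Neighbours in the order of levels had libraries that did not overlap, apart from 2 pairs. ZFAS1 at 283 ± 20.7 FPKM and SNHG6 at 292 ± 18.9 FPKM overlapped in the knockout clones. ZFAS1 at 181 ± 9.80 FPKM and SNHG8 at 186 ± 6.65 FPKM overlapped in the parental clones. Summed over the 10 genes, the level was 3722 to 4007 FPKM in the knockout clones, against 3773 to 3923 FPKM in the parental clones. It was 4617 and 4763 FPKM in the FOXK1 pools and 4383 and 4701 FPKM in the FOXK2 pools, against 4231 and 4064 FPKM in the SCR pools. As a share of all FPKM the 10 genes made up 0.444% to 0.486% in the knockout clones, against 0.396% to 0.436% in the parental clones. Over the 12 libraries the ratio of the highest to the lowest level was smallest for SNHG15, at 1.25, and largest for SNHG12, at 1.92. In bulk RNA the share of cells with a transcript and the amount per cell cannot be told apart.

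**Figure D1:**
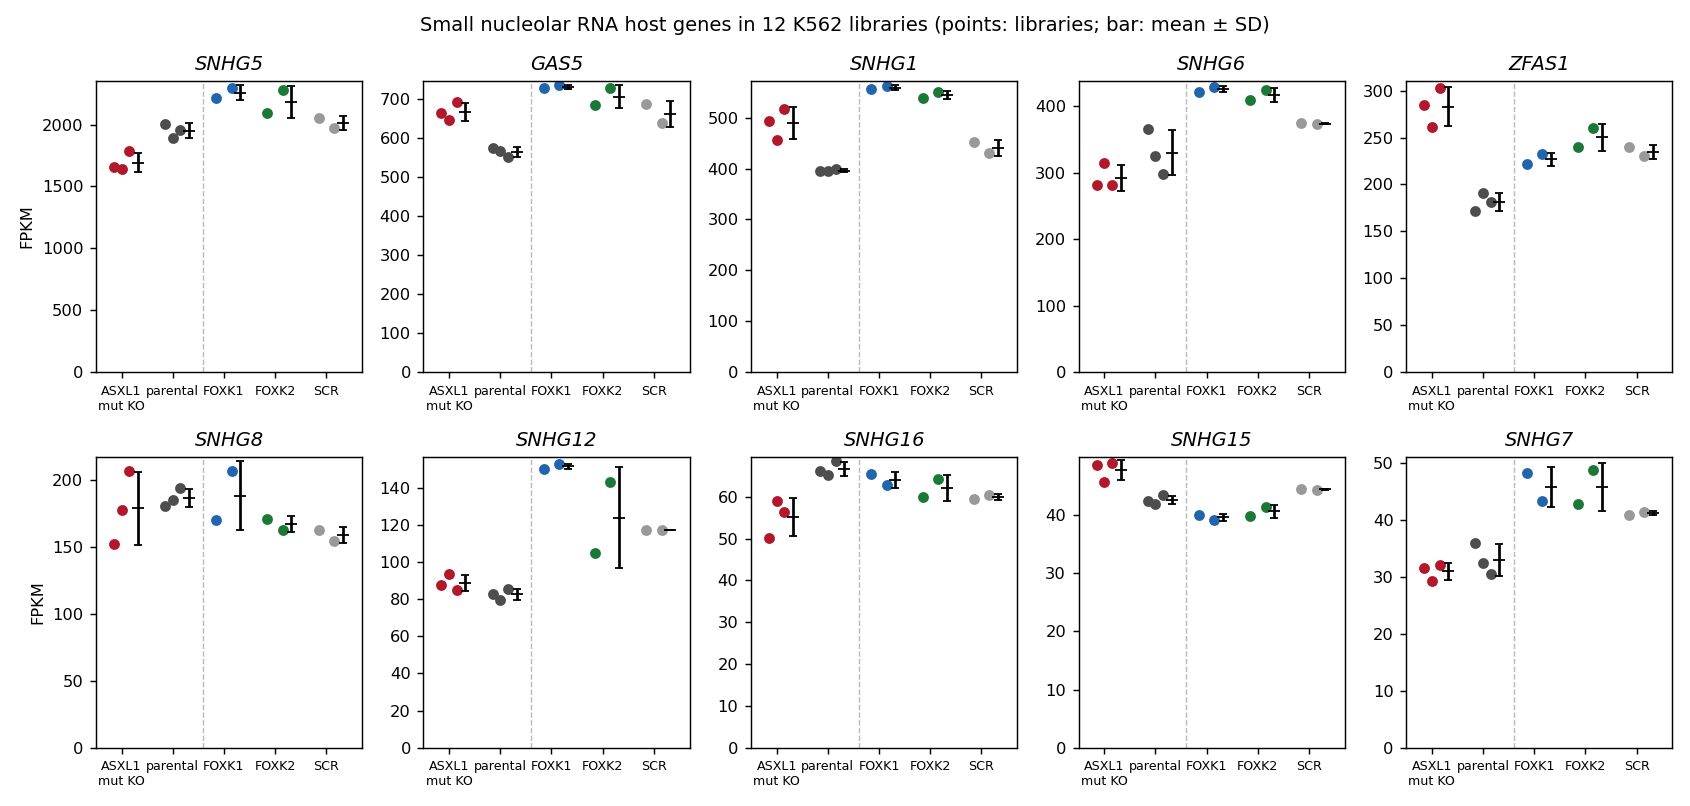
FPKM of each host gene in the 12 libraries, 1 panel per gene on its own linear axis, with points for libraries and a bar for the mean ± SD of each group. The clones stand left of the dashed line and the pools right of it, and ZFAS1 and SNHG1 show mutant ASXL1 knockout clones wholly above the parental clones.

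In the clones without the mutant ASXL1 allele, ZFAS1, SNHG1 and GAS5 rose and SNHG5 and SNHG16 fell relative to the parental clones, although neither fall was called after the libraries were rescaled. ZFAS1 changed most of the 10, by 55.7% on the FPKM + 1 scale, and the other called changes were between 13.3% and 23.4% in size. Calls rest on limma with log2(FPKM + 1) and need a p under 0.05 after Benjamini-Hochberg adjustment over all 13597 genes tested. The call covered 5 of 10 host genes, beside 22.4% of all tested genes. Rises took 3 of the 10, beside 7.91% of all genes, and falls took 2, beside 14.4%. The median log2 fold change was 0.01 for the 10 hosts and -0.06 for all tested genes. Groups did not overlap for 6 of the 10, beside 42.9% of all tested genes.

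ZFAS1, which lies antisense to the start of ZNFX1 and hosts the SNORD12 snoRNAs, had 285, 261 and 303 FPKM in the knockout clones, against 172, 191 and 181 FPKM in the parental clones. Every knockout clone was above every parental clone. The log2 fold change was 0.64 (SE 0.07, 95% interval 0.48 to 0.80), with an adjusted p of 0.00241.

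SNHG1 had 494, 457 and 518 FPKM in the knockout clones, against 394, 394 and 399.8 FPKM in the parental clones. The parental clones were nearly equal and the knockout clones stood apart from each other and above all of them. Its log2 fold change was 0.30 (SE 0.05, adjusted p = 0.00968).

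GAS5 had 664, 646 and 692.5 FPKM in the knockout clones, against 576, 567 and 551 FPKM in the parental clones. The groups did not overlap. The log2 fold change was 0.24 (SE 0.04, adjusted p = 0.0100). ZFAS1, SNHG1 and GAS5 stayed called in 12 of 12 alternative analyses, with adjusted p up to 0.0189 for ZFAS1, 0.0450 for SNHG1 and 0.0448 for GAS5.

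SNHG5 had 1655, 1639 and 1784 FPKM in the knockout clones, against 2007, 1890 and 1958 FPKM in the parental clones. All knockout clones were below all parental clones. The log2 fold change was -0.21 (SE 0.05, adjusted p = 0.0224). SNHG5 was 44.0% to 44.5% of the summed level of the 10 hosts in the knockout clones, against 50.1% to 51.4% in the parental clones, a share that the rises of ZFAS1, SNHG1 and GAS5 lower as well. The adjusted p was 0.0876 and 0.0641 without knockout clone 1 or 2, and 0.0514 and 0.0530 without parental clone 1 or 2. It was 0.0763 after median-ratio scaling and 0.561 with every library rescaled to an equal sum, where the log2 fold change was -0.050.

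SNHG16, host of the SNORD1 snoRNAs, had 50.1, 58.9 and 56.4 FPKM in the knockout clones, against 66.1, 65.2 and 68.6 FPKM in the parental clones. Every knockout clone was lower, and knockout clone 1 was the lowest library of all 12. The log2 fold change was -0.27 (SE 0.07, adjusted p = 0.0355). The adjusted p was 0.0957 and 0.0864 without knockout clone 1 or 3, and 0.0644, 0.0881 and 0.0734 without parental clone 1, 2 or 3. It was 0.0709 after median-ratio scaling and 0.251 with every library rescaled to an equal sum, where the log2 fold change was -0.12.

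The other 5 hosts were not called in this comparison. SNHG15, host of SNORA9, had 48.6, 45.7 and 48.9 FPKM in the knockout clones, against 42.4, 42.0 and 43.4 FPKM in the parental clones, and its log2 fold change of 0.16 had an adjusted p of 0.0705. Its groups did not overlap. SNHG12 had a log2 fold change of 0.10 (95% interval -0.03 to 0.23, adjusted p = 0.237). SNHG7 had -0.08 (-0.27 to 0.10, adjusted p = 0.472) and SNHG6 had -0.17 (-0.37 to 0.02, adjusted p = 0.178). SNHG8 varied most within the knockout clones, at 152, 178 and 207 FPKM, against 181, 185 and 194 FPKM in the parental clones, with a log2 fold change of -0.07 (-0.32 to 0.18, adjusted p = 0.659).

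The scaling of the libraries decides the balance of directions in this comparison. Rescaling each library to the same summed FPKM moved the median log2 fold change of all tested genes to 0.079, against -0.060 as deposited, and rises made up 73.5% of all calls after rescaling, against 35.4% as deposited and 51.0% after median-ratio scaling. The host genes counted 5 rises and 0 falls after rescaling, with SNHG12 (adjusted p = 0.0158) and SNHG15 (0.0108) joining. All 13597 tested genes then counted 2324 rises and 836 falls. After median-ratio scaling the hosts counted 4 rises and 0 falls, with SNHG15 (0.0284) joining. All tested genes then counted 1437 rises and 1382 falls. ZFAS1, SNHG1 and GAS5 lie above the median of all tested genes as deposited, and a rescaling, which moves all genes nearly alike, leaves that so by construction.

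The strand of the reads is not stated, so reads of a host and of a gene that overlaps it on the opposite strand cannot be told apart. TRNAU1AP, which overlaps SNHG12, averaged 15.5 FPKM in the knockout clones, against 28.2 FPKM in the parental clones (log2 fold change -0.83, adjusted p = 0.00467). ZNFX1, which overlaps ZFAS1, averaged 6.96 FPKM in the knockout clones, against 5.36 FPKM in the parental clones (0.32, adjusted p = 0.0367), far below ZFAS1 in level. FAM69B, which overlaps SNHG7, had 10.9 to 15.9 FPKM over the 12 libraries and was not called in any comparison. The parts of these neighbours in the host values were not tested.

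**Figure D2:**
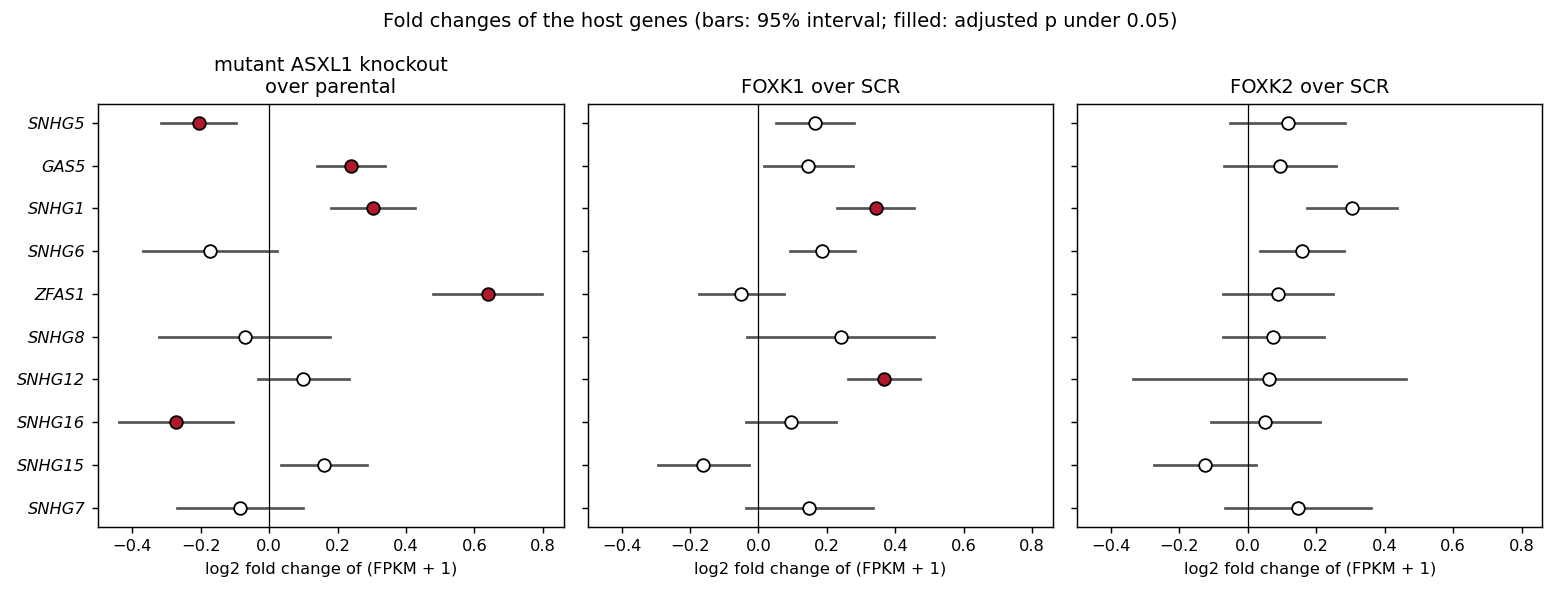
Log2 fold change of FPKM + 1 for each host gene in 3 comparisons, with 95% intervals from limma and filled points where the adjusted p was under 0.05. Mutant ASXL1 knockout over parental shows 3 called rises and 2 called falls, the falls lost after either rescaling, FOXK1 over SCR shows SNHG1 and SNHG12, and FOXK2 over SCR shows none.

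In the FOXK1 pools, SNHG12 and SNHG1 rose relative to the SCR pools. The call covered 2 of 10 host genes, beside 1.83% of the 13697 genes tested, both were rises, beside 0.679%, and neither stayed called when any 1 of the 4 libraries was left out. For 8 of the 10 both FOXK1 pools were above both SCR pools, beside 31.3% of all tested genes. The median log2 fold change was 0.16 for the 10 hosts and 0.02 for all tested genes.

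SNHG12, host of SNORA44 and its neighbours, had 150.3 and 153 FPKM in the FOXK1 pools, against 117 and 117 FPKM in the SCR pools. The pools of each kind were nearly equal. The log2 fold change was 0.37 (SE 0.04, adjusted p = 0.0373), and the adjusted p was 0.149 and 0.167 without FOXK1 pool 1 or 2 and 0.238 and 0.275 without SCR pool 1 or 2. SNHG1 had 556 and 562.4 FPKM in the FOXK1 pools, against 452 and 430.2 FPKM in the SCR pools. This gave a log2 fold change of 0.34 (SE 0.04, adjusted p = 0.0450), and the adjusted p was 0.155 and 0.190 without FOXK1 pool 1 or 2 and 0.226 and 0.275 without SCR pool 1 or 2.

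The other hosts were not called. SNHG6 had 422 and 429 FPKM in the FOXK1 pools, against 374 and 373 FPKM in the SCR pools (log2 fold change 0.19, adjusted p = 0.0848). SNHG5 had 2215 and 2300 FPKM in the FOXK1 pools, against 2053 and 1976 FPKM in the SCR pools (0.16, adjusted p = 0.130). GAS5, SNHG7, SNHG8 and SNHG16 had fold changes of 0.15, 0.15, 0.24 and 0.09, with adjusted p between 0.185 and 0.337. SNHG15 was the gene with both FOXK1 pools below both SCR pools, at 40.0 and 39.2 FPKM in the FOXK1 pools, against 44.5 and 44.3 FPKM in the SCR pools (-0.16, adjusted p = 0.163). ZFAS1 had -0.05 (95% interval -0.17 to 0.07).

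In the FOXK2 pools, 0 of 10 hosts were called relative to the SCR pools, beside 1.02% of the 13672 genes tested. At an unadjusted limma p under 0.05 there were 2, SNHG1 and SNHG6, beside 20.7% of all tested genes. SNHG1 had 539 and 551 FPKM in the FOXK2 pools, against 452 and 430.2 FPKM in the SCR pools. Its log2 fold change was 0.30 (SE 0.05, 95% interval 0.17 to 0.44, adjusted p = 0.0858), and it was called after rescaling to an equal sum (adjusted p = 0.0477). SNHG6 had 409.7 and 424 FPKM in the FOXK2 pools, against 374 and 373 FPKM in the SCR pools (0.16, adjusted p = 0.180). SNHG12 had 105 and 143 FPKM in the FOXK2 pools, against 117 and 117 FPKM in the SCR pools, so the FOXK2 pools lay on either side of the SCR pools. The remaining 7 genes had log2 fold changes of -0.13 for SNHG15 to 0.15 for SNHG7, with adjusted p of 0.294 or more.

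A joint fit of the 6 pools compared FOXK2 with FOXK1 knockout directly. No host gene was called by limma (0 of 10), beside 0.0356% of the 14055 genes tested, and 0 of 10 had an unadjusted p under 0.05, beside 6.42%. The intervals leave room for differences of some size. SNHG12 had 105 and 143 FPKM in the FOXK2 pools, against 150.3 and 153 FPKM in the FOXK1 pools (log2 fold change -0.30, 95% interval -0.65 to 0.04, adjusted p = 0.771). ZFAS1 had 240.0 and 260.2 FPKM in the FOXK2 pools, against 222 and 232 FPKM in the FOXK1 pools (0.14, -0.01 to 0.28, adjusted p = 0.771). For SNHG1 the interval was narrower, -0.15 to 0.07 around -0.04.

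The authors' deposited table gives their own log2 fold changes and adjusted p-values, on a model that the headers do not describe. Between mutant ASXL1 knockout and parental clones, 5 of the 10 hosts passed an adjusted p of 0.05 in the authors' deposited table, beside 33.1% of the genes tested here. Rises of 0.69 for ZFAS1, 0.33 for SNHG1 and 0.25 for GAS5 stand in the authors' deposited table beside a fall of -0.25 for SNHG16 (adjusted p = 0.00272). SNHG5 was at -0.13 in the authors' deposited table and did not pass (adjusted p = 0.113). Of the 10 hosts, SNHG8 differed most between the sources, with -0.45 and an adjusted p of 5.143e-05 in the authors' deposited table. The limma value for SNHG8 from FPKM was -0.07, and the reason for the gap was not tested.

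For FOXK1 over SCR the authors' deposited table had 3 of 10 hosts past 0.05, beside 19.8% of the genes tested here, and all 3 were higher, beside 9.26%. They were SNHG12 at 0.43, SNHG1 at 0.31 and GAS5 at 0.19 in the authors' deposited table. For FOXK2 over SCR, SNHG1 at 0.28 (adjusted p = 9.574e-05) was the 1 host of 10 past 0.05 in the authors' deposited table, beside 17.7% of the genes tested here.

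**Figure D3:**
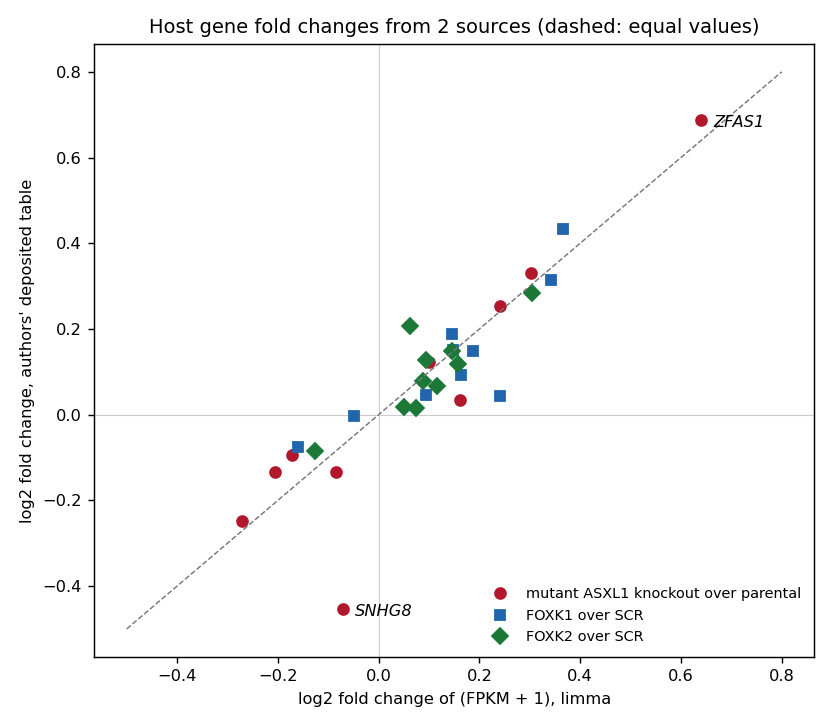
Log2 fold changes of the 10 host genes in 3 comparisons, from limma on FPKM + 1 on the horizontal axis and from the authors' deposited table on the vertical axis, with a dashed line for equal values. ZFAS1 lies near the line at 0.64 and 0.69, and SNHG8 in the mutant ASXL1 knockout lies off it at -0.07 and -0.45.

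Genes around the hosts' pathway were taken from 5 lists. The list of other long non-coding host genes held 25 names, with aliases among them, and 21 were found. It also held TAF1D and CWF19L1, which encode proteins and were not called. Of the list, 17 were tested between knockout and parental clones, and 3 rose and 5 fell, 8 of 17 beside 22.4% of all tested genes. C6orf48, a host on chromosome 6, rose by 0.65 (379 ± 25.9 FPKM in the knockout clones, against 240.0 ± 3.54 FPKM in the parental clones, SD, n = 3 each, adjusted p = 0.00130). SNHG17 rose by 0.58 (adjusted p = 0.00360). DANCR, known as an inhibitor of differentiation, had a log2 fold change of -0.79 (141 ± 15.1 FPKM in the knockout clones, against 244 ± 4.54 FPKM in the parental clones, adjusted p = 0.00178). SNHG21 had -0.33 (0.0103), or -0.18 with an adjusted p of 0.0763 after rescaling to an equal sum. The list's median was -0.22, beside -0.06 for all tested genes. After rescaling to an equal sum the count was 6 rises and 1 fall, beside 2324 rises and 836 falls of all 13597 tested genes.

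Protein-coding hosts carry snoRNAs in introns of ribosomal protein, translation factor and other genes. They had 2 rises and 10 falls among 37 tested in the knockout clones, 12 of 37 beside 22.4% of all tested genes. RCC1, the nucleotide exchange factor of Ran, had a log2 fold change of -0.70 (adjusted p = 0.000896). The ribosomal protein genes RPSA and RPS2 had -0.27 and -0.27, with adjusted p of 0.00290 and 0.00308. The direction of this list depended on the scaling: with libraries rescaled to an equal sum it counted 10 rises and 2 falls. All 13597 tested genes then counted 2324 rises and 836 falls. RPSA (adjusted p = 0.0723) and RPS2 (0.103) were no longer called after that rescaling. RCC1 stayed called and lower in 12 of 12 alternatives.

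Nonsense-mediated decay factors had 2 rises and 3 falls among 20 tested in the knockout clones, and 5 of 20 is near the 22.4% of all tested genes. MAGOHB and MAGOH, paralogous subunits of the exon junction complex that marks spliced RNA, had -0.77 (adjusted p = 0.00284) and -0.32 (0.00651), and both stayed called in 12 of 12 alternatives. NBAS had -0.34 (0.00809), or 0.0765 after rescaling to an equal sum. SMG1, the kinase that phosphorylates UPF1, rose by 0.27 (0.0454), and its adjusted p was 0.141 and 0.0836 without parental clone 2 or 3 and 0.124, 0.0579 and 0.142 without knockout clone 1, 2 or 3. After rescaling to an equal sum the list counted 6 rises and 2 falls, beside 2324 rises and 836 falls of all 13597 tested genes. The list's median was 0.06.

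SnoRNP core and assembly proteins had 1 rise and 1 fall among 19 tested in the knockout clones, again beside 22.4% of all tested genes. RUVBL2, an AAA+ ATPase of snoRNP assembly, had -0.26 (adjusted p = 0.0241), and lost the call without parental clone 2 (0.0639), knockout clone 1 (0.0819) or knockout clone 3 (0.0863). After rescaling to an equal sum RUVBL2 had -0.10 (adjusted p = 0.140), and it was called in 5 of 12 alternatives. ZNHIT6, a C/D snoRNP assembly factor, rose by 0.34 (0.0326), and the adjusted p was 0.0673 or more without any 1 clone other than parental clone 3. After rescaling to an equal sum the list counted 4 rises and 0 falls, beside 2324 rises and 836 falls of all 13597 tested genes. Among 12 regulators of oligopyrimidine-start RNAs, 0 rose and 2 fell, 2 of 12 beside 22.4% of all tested genes. After rescaling to an equal sum 2 of these regulators rose and 1 fell, beside the same counts of all tested genes. MTOR had -0.38 (0.00668), called in 12 of 12 alternatives. TIAL1 had -0.22 (0.0303) and was called in 2 of 12 alternatives, with an adjusted p of 0.0539 or more without any 1 clone.

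Of all tested genes 1.83% were called in the FOXK1 pools, and of 18 tested in the list of other non-coding hosts 0 were called. NOP56, a C/D snoRNP core protein whose gene is itself a host and stands in both lists, rose by 0.39 (321 FPKM in the FOXK1 pools, against 244 FPKM in the SCR pools, adjusted p = 0.0299). EIF4A2, the translation helicase gene, rose by 0.35 (0.0376), making 2 of 37 protein-coding hosts. SHQ1, an assembly factor of H/ACA snoRNPs, had -0.50 (0.0355), and CNBP, which binds oligopyrimidine-start RNAs, rose by 0.29 (0.0477), or 1 of 12 regulators. Of 20 decay factors 0 were called. When any 1 of the 4 libraries was left out, 0 of these lists' genes stayed called. In the FOXK2 pools, against the SCR pools or against the FOXK1 pools, 0 genes of the 5 lists were called by limma. These counts stand beside 1.02% and 0.0356% of all tested genes, in the same order.

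**Figure D4:**
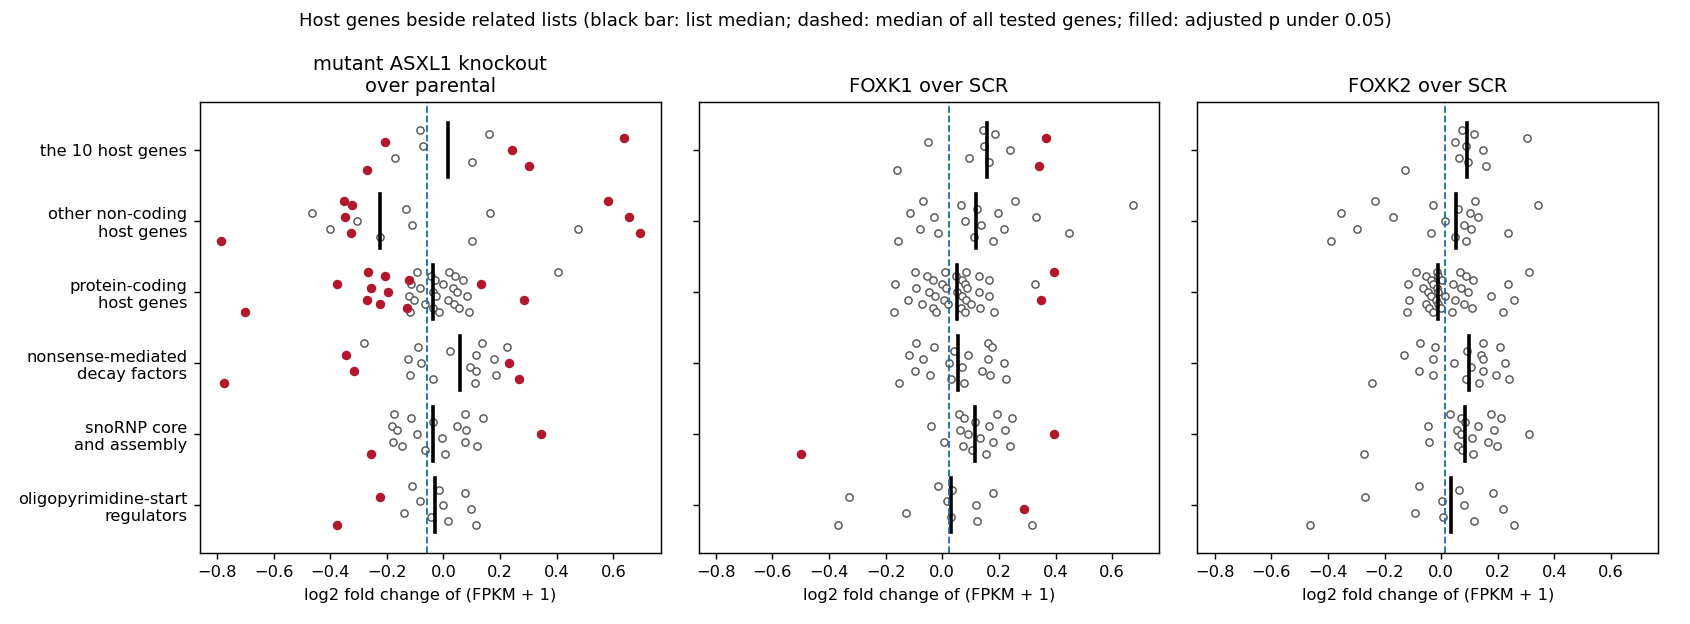
Log2 fold changes of FPKM + 1 for the 10 host genes and 5 related lists in 3 comparisons, 1 point per gene, filled where the adjusted p was under 0.05, with a black bar at the list's median and a dashed line at the median of all tested genes. Protein-coding hosts in the mutant ASXL1 knockout show 10 called falls and 2 called rises as deposited. These become 2 falls and 10 rises with libraries rescaled to an equal sum, where all 13597 tested genes count 836 falls and 2324 rises.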

How the data were processed

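The deposited tables hold 1 FPKM value per gene and library, per the file headers, and the authors' log2 fold changes with adjusted p-values, quoted only as theirs. Per the submitters' processing notes the build was GRCh38.p10, and TopHat, Bowtie, RSEM, edgeR and Cufflinks were used, with versions and roles not given in the sources used here. Per the labels' protocols, total RNA went into a TruSeq library. Values up to 0.3 FPKM were, within 0.0006 FPKM, whole multiples of 0.0095 to 0.01036 FPKM per library. The median lowest value above 0 ran from 11.7 FPKM for genes with a transcript up to 200 bases to 0.01 FPKM above 4000 bases, so values scale with length. Counts were not used here, depth in reads is unknown, so the count test was replaced by the planned fallback. With limma 3.58.1 (R 4.3.3, variance trend), log2(FPKM + 1) was fitted per comparison, two-sided, for genes reaching 1 FPKM in a number of libraries equal to the smaller group. Adding 1 understates changes of low genes. FOXK2 against FOXK1 used all 6 pools. Genes were named by rule: all hosts, up to 4 per list by adjusted p, targets, overlapping genes and the 5 likest. Values of 1 gene named by this rule and of 1 marker gene are not reported here. Members and lists were chosen with earlier results of these data known. Alternatives for the lists were added after seeing the data. The test was tested on simulated data.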

Additional observations from a re-analysis of the deposited data

How the results depend on the processing

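Each result was recomputed with a pseudocount of 0.1, no filter, median-ratio scaling, libraries rescaled to an equal sum, no variance trend, a replicate block, and without each library in turn. For the 10 hosts, fold changes kept direction and side of the threshold in 95 of 120 alternatives for mutant ASXL1 knockout over parental, 86 of 100 for FOXK1 over SCR, 98 of 100 for FOXK2 over SCR and 113 of 120 for FOXK2 over FOXK1. Between knockout and parental clones, 3 hosts were called, with 0 falls, without the filter, without the trend and with the replicate block, 4 rises and 0 falls after median-ratio scaling, and 5 rises and 0 falls after rescaling. Without 1 clone, 3 to 4 hosts were called, with 0 to 1 fall. All genes called were 1947 without the filter, 2657 without the trend and 1824 with the block, against 3039. They were 2819 after median-ratio scaling and 3160 after rescaling. Without 1 clone they were 1346 (without knockout clone 3) to 2696. The other long non-coding hosts counted 5 without the filter or the trend and 4 to 7 without 1 clone. Protein-coding hosts counted 4 without the filter, 7 without the trend and 7 to 14 without 1 clone. Decay factors counted 3 without the filter, without the trend and with the block, 8 after rescaling and 3 to 5 without 1 clone. SnoRNP proteins counted 0 without the filter and with the block, 1 without the trend, 4 after rescaling and 0 to 3 without 1 clone. Oligopyrimidine-start regulators counted 3 after rescaling and 1 after median-ratio scaling, without the trend, with the block and without each clone.

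For FOXK1 over SCR, 0 hosts were called without the filter, without the trend, with the block or without any 1 pool, and all genes called were 10, 69, 37 and 0 to 11 in these settings. The protein-coding, snoRNP and regulator lists then counted 0 in each, and after rescaling the protein-coding list counted 1 and the regulators 0. For FOXK2 over SCR, 1 host, higher, was called after rescaling, and all genes called were 0 without the filter, 248 after rescaling, 52 without the trend, 39 with the block and 0 to 15 without 1 pool, against 139. For FOXK2 over FOXK1 all genes called were 2 without the filter, 12 without the trend, 2 with the block and 1 to 5 without 1 pool, against 5.

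Reversed directions, none of them called, were few. For mutant ASXL1 knockout over parental, SNHG7 was 0.067 and SNHG8 0.084 after rescaling, and SNHG8 ran from -0.18 without knockout clone 3 to 0.039 without knockout clone 1. For FOXK2 over SCR, SNHG12 was -0.16 without FOXK2 pool 2 and 0.29 without FOXK2 pool 1. For FOXK2 over FOXK1, leaving out 1 pool gave SNHG5 -0.11 to 0.013, SNHG7 -0.096 to 0.091 and SNHG16 -0.094 to 0.0062. SNHG7 was 0.012 after median-ratio scaling and 0.029 after rescaling, and SNHG6 was 0.0031 after rescaling. The cause of these changes was not tested. Libraries with the same number deviated from their groups with correlations of -0.10 to 0.05 across genes. With 2 pools a group the deviations mirror each other, so each pool comparison gives 1 value. Whether libraries with the same number share a culture or a day was not tested. The replicate block also costs residual degrees of freedom. Where 1 pool was left out, the lone pool was assumed to vary like the other group. The FOXK comparisons rest on 2 pools a group.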

Other observations

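Genes whose levels ran most like the mean of the 10 hosts were ranked over the 12 libraries, after the clones and the pools were each centred on their own mean, among 7566 genes with a mean of at least 10 FPKM. The highest Pearson r belonged to CCT2 (0.88), MARCH9 (0.88), CCT6A (0.88), SRSF7 (0.88) and DUSP11 (0.88). CCT2 and CCT6A encode subunits of the chaperonin that folds actin and tubulin, and SRSF7 is a splicing factor. The libraries share controls and scaling, and r is given as a description. The differences between groups were part of the likeness, so none is tested here. CCT2 averaged 273 FPKM in the mutant ASXL1 knockout clones, against 241 FPKM in the parental clones. MARCH9 averaged 11.3 FPKM in the knockout clones, against 10.2 FPKM in the parental clones. CCT6A averaged 174 FPKM in the knockout clones, against 162 FPKM in the parental clones. For SRSF7 the means were 160.1 FPKM in the knockout clones, against 144 FPKM in the parental clones, and for DUSP11 they were 16.8 FPKM in the knockout clones, against 15.5 FPKM in the parental clones. MARCH9 was the 1 gene of the 5 whose clone groups overlapped. Groups did not overlap for 42.9% of all tested genes. The choice by likeness to the hosts favours genes with such a difference, so the separation is no result about these 5.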
